A study of Rattus norvegicus with 29 samples.

Results

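Narrow open chromatin regions (OCRs) are the subject here. They are the 9736 regions under 400 bp wide among the 98237 regions in the ATAC-seq count matrix of the series. They were chosen by width alone, as end minus start, and they made up 9.91% of the matrix. The other 88501 OCRs were 400 bp or wider. Narrow OCRs were at least 150 bp wide, with a median of 338 bp, against a median of 698 bp and a maximum of 3796 bp among the wider ones.

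ATAC-seq uses a transposase to cut and tag DNA that is not wrapped in nucleosomes, so read counts rise where chromatin is open. Active promoters and enhancers are open because transcription factors and the transcription machinery hold nucleosomes away from them. A short OCR can hold little more than the gap between neighbouring nucleosomes, whereas a wide one can span a promoter or several enhancer elements. Methamphetamine (METH) is a psychostimulant that releases dopamine and other monoamines in the brain.

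Adult male Sprague-Dawley rats received 4 intraperitoneal injections, 2 h apart, of METH hydrochloride at 10 mg/kg or of saline at 1 mL/kg, and tissue was taken the day after the last injection. The labels name no genetic change in either group. Omni-ATAC libraries were made from frozen tissue of the nucleus accumbens (NAc), the dentate gyrus (DG), Ammon's horn of the hippocampus (CA) and the subventricular zone (SVZ). Each treatment had 4 libraries from each of the first 3 tissues, while SVZ had 3 after saline and 2 after METH, giving 29 in all from 8 animals. Animals were told apart by a number in the library names within the peak files, since the sample titles name none. NAc and SVZ were punched and DG and CA were scooped out by hand, so each library pools the cell types of a piece of tissue, and fewer cells of a type and less opening per cell cannot be told apart. Markers of the regions were not analysed here, since no gene annotation of the rat build rn6 was used.

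The libraries held 7.55 to 19.4 M counts over all OCRs, of which 0.287 to 0.653 M counts fell in narrow OCRs. The median narrow OCR received 25 to 60 counts per library and the median wider OCR 37 to 109. Levels are given as CPM, the counts divided by the library total over OCRs after upper-quartile scaling, as edgeR gives them. Library names within the peak files came in 2 spellings, which split the series into name set 1 (13 libraries) and name set 2 (16 libraries). What the spelling stands for was not stated, and each animal fell in a single name set. NAc, DG and CA had 2 libraries of each treatment in each set, SVZ saline had 1 and 2, and both SVZ METH libraries were in name set 2.

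METH replicate 3 of NAc stood apart from the other NAc libraries. In the 498 narrow OCRs that were higher in NAc than in the other regions of saline animals, described below, its median was 0.923 CPM. The other 7 NAc libraries had medians of 3.06 to 5.43 CPM there, and the 16 DG and CA libraries 0.344 to 0.824 CPM. Its peaks covered 2.01% of these OCRs, against 53.8% to 99.0% in the other 7 NAc libraries. METH replicates 1 and 4 of DG stood apart in the same way in the 151 wider OCRs that were specific to DG in saline animals. Their medians were 1.29 and 1.52 CPM, against 2.36 to 11.2 CPM in the other 14 DG and CA libraries and 0.705 to 1.75 CPM in NAc and SVZ. None of these libraries was high in the set of the other region. METH replicates 1 and 4 of DG had 0.344 and 0.476 CPM in the 498 OCRs. METH replicate 3 of NAc had 0.831 CPM in the 151 OCRs. The METH counts at an unadjusted threshold, the class medians and the OCRs named for a METH difference in NAc and DG are given with and without these 3 libraries, while the fit with RUVr factors was run only with them.

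Narrow OCRs carried few counts each but were dense for their length. Their median level, as the mean over the 29 libraries, was 2.79 CPM (quartiles 2.25 and 3.61), against 4.61 CPM (2.94 and 9.26) in wider OCRs. Per kb of OCR the order was the opposite, with a median of 8.73 CPM per kb in narrow OCRs and 6.83 in wider ones. The class median per library was 7.42 to 9.79 CPM per kb in narrow and 5.16 to 7.82 in wider OCRs. It was higher in narrow OCRs in 29 of 29 libraries, by 1.78 ± 0.234 CPM per kb (SD over 8 animals, each the mean of its libraries). This is a description with no test, since the level is divided by the width that defines the classes. With the limit at 500 bp the difference was 0.000339 CPM per kb, so it rested on where the limit was placed.

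The level per kb formed a trough across widths. Its median was 16.7 CPM per kb in the 285 OCRs of 150 to 199 bp and fell to 7.21 in the 4146 OCRs from 350 bp up to the limit. It was lowest, at 5.71, in the 16159 OCRs of 500 to 599 bp and was 16.6 in the 2694 OCRs of 1500 bp or more. The lower end of the level range was set by the matrix itself. In every OCR of both width classes the fourth-highest library reached at least 3.30 CPM before upper-quartile scaling, while the fifth-highest was as low as 1.39 CPM in narrow and 1.22 CPM in wider OCRs. The same floor on counts is a higher density in a shorter region, and its part in the trough was not tested.

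**Figure D1:**
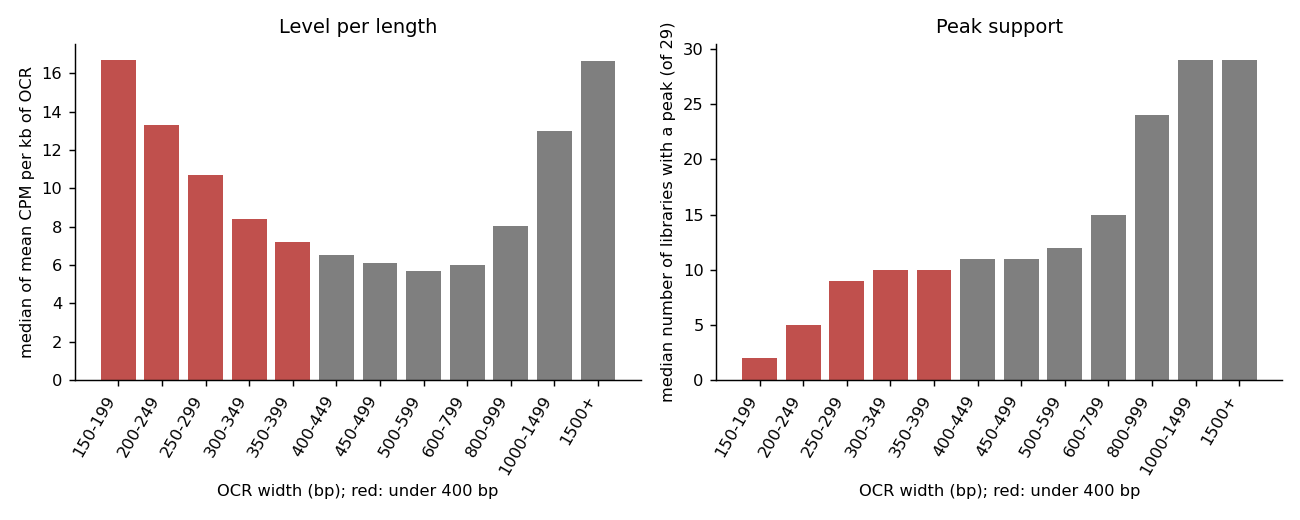
Median level per kb of OCR (left, CPM per kb) and median number of libraries with a peak (right, of 29) in OCRs grouped by width in bp, with red bars for OCRs under 400 bp and grey bars for wider ones. The level per kb falls from 16.7 to 5.71 and rises again to 16.6, while the number of libraries with a peak rises from 2 to 29.

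The brightest narrow OCRs were few. A mean above 10 CPM was reached by 118 narrow OCRs (1.21%) and by 20519 wider ones (23.2%). The 95th percentile was 6.36 CPM in narrow and 44.7 CPM in wider OCRs. No count was seen in 642 of the narrow OCRs' library values (0.227%), spread over 420 OCRs, and the share was 0.123% in wider OCRs. A count of 0 allows up to 3 counts, which is 0.138 to 0.354 CPM depending on the library. This floor covers counting error alone, since reads are not independent molecules.

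Levels did not jump at the width limit. The 106 OCRs that were 1 bp short of it had a median level of 2.82 CPM and peaks in a median of 9.5 libraries. The 120 OCRs of exactly 400 bp had 2.77 CPM and 10 libraries.

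Peaks called in the separate libraries supported narrow OCRs less often than wider ones. Width and support share a source, because nearly all OCRs are spans covered by the merged peaks of the libraries, so their relation is described here without a test. A narrow OCR held a peak, overlapping by at least 1 bp, in a median of 9 of the 29 libraries (quartiles 5 and 16), and a wider OCR in 18 (10 and 28). Peaks were present in all 29 libraries in 184 narrow OCRs (1.89%) and in 20612 wider ones (23.3%). A single library supplied the peak in 394 narrow OCRs (4.05%) and in 123 wider ones (0.139%). The narrowest depended most on single libraries, with 46.7% of OCRs under 200 bp and 1.42% of those from 350 bp up to the limit resting on 1 library.

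**Figure D2:**
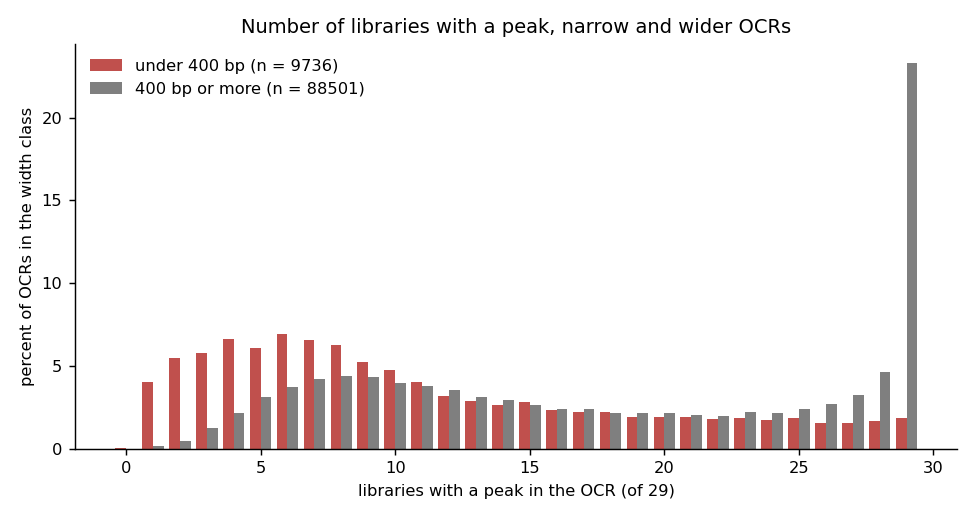
Percent of OCRs in each width class (vertical axis) by the number of libraries with a peak in the OCR (horizontal axis, 0 to 29), with red bars for the 9736 narrow OCRs and grey bars for the 88501 wider ones. Narrow OCRs centre on few libraries, while 23.3% of wider OCRs have a peak in all 29.

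The lower support of narrow OCRs held at equal level above 3 CPM. Among OCRs with a mean of 2 to 3 CPM the median number of libraries with a peak was 8 for narrow and 9 for wider OCRs. It was 11 and 13 at 3 to 4 CPM, 15 and 19 at 4 to 6 CPM, and 21 and 26 at 6 to 10 CPM. Below 2 CPM it was 7 for narrow and 6 for wider OCRs.

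Within each library, 20.7% to 57.6% of narrow OCRs lay under a peak, against 47.0% to 82.3% of wider OCRs. The narrow share was the lower in 29 of 29 libraries, by 24.4 ± 1.90 percentage points (SD over 8 animals). Peaks in narrow OCRs were themselves narrow, with a median width of 216 to 256 bp per library, and 353 to 489 bp in wider OCRs. Since nearly all OCRs are spans of merged peaks, this followed from the choice by width. The median fold enrichment of the peaks over background was 4.02 to 5.46 per library in narrow and 5.25 to 8.11 in wider OCRs. The median −log10 q was 8.84 to 16.3 and 12.2 to 26.0, in that order.

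Most short peak intervals never reached the matrix. Merging the peaks of all libraries gave 135627 intervals under 400 bp, of which 9642 (7.11%) were rows of the matrix with the same ends. Of the 115104 merged intervals of 400 bp or more, 87597 (76.1%) were. Why an interval was left out was not tested. The remaining 94 narrow OCRs had other ends than any merged interval.

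Peaks in narrow OCRs were confined to 1 brain region in 1088 cases (11.2%), and the same held for 1543 wider OCRs (1.74%). Peaks in CA alone supported 540 narrow OCRs (5.55%), in NAc alone 369 (3.79%), in DG alone 103 (1.06%) and in SVZ alone 76 (0.781%). Among wider OCRs NAc alone came first, with 758 (0.856%), then CA with 663 (0.749%), SVZ with 95 (0.107%) and DG with 27 (0.0305%). Most of the narrow cases rested on a minority of the region's libraries. Peaks in 50% or more of the region's libraries were found in 147 NAc, 66 CA, 7 SVZ and 0 DG cases. Among wider OCRs these numbers were 558, 205, 37 and 1 in the same order. CA had the highest mean depth, at 15.9 M counts in both treatments against 9.23 to 12.1 M counts in the other groups, and the part of depth in these counts was not tested. Peaks in all 4 regions were seen in 4010 narrow OCRs (41.2%) and 57888 wider ones (65.4%).

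Narrow OCRs lay near other OCRs. The median distance to the closest OCR was 1.75 kb (quartiles 0.695 and 3.76 kb), against 5.26 kb (1.88 and 11.9 kb) for wider OCRs. A neighbour within 1 kb was present for 33.7% of narrow and 15.8% of wider OCRs. The closest OCR at any distance was itself narrow for 13.9% of narrow and 11.1% of wider OCRs. Few stood alone, with 2.10% of narrow OCRs more than 50 kb from any other.

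All rat autosomes held narrow OCRs, and chromosome X held 83. Their share of a chromosome's OCRs was highest on chromosomes 10 (12.4%), 19 (12.2%) and 20 (12.0%) and lowest on chromosome X (6.58%) and chromosome 2 (8.18%). Chromosome Y had 9 OCRs, of which 0 were narrow.

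The 5 narrow OCRs with the highest mean level had unlike peak support. They are given by chromosome, start and end on the rat genome build rn6. No gene is named for them because no rn6 annotation was used. The brightest, chr1:11907409-11907727 (319 bp), averaged 130 CPM and had a peak in 28 of 29 libraries, although its highest fold enrichment over background was 2.76. Its level varied within groups, from 63.3 to 188 CPM among the 4 saline NAc libraries and from 30.5 to 159 CPM in the 2 SVZ METH libraries. In NAc saline libraries, name set 1 had 64.3 and 63.3 CPM and name set 2 had 188 and 152 CPM, without overlap. In DG saline libraries the sets likewise had 50.3 and 69.3 CPM against 163 and 127 CPM.

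Of the other 4, 3 lay within one stretch of chromosome 4 and were bright, with peak support that ranged widely. The OCRs chr4:77446347-77446644, chr4:77449532-77449850 and chr4:77451781-77452115 averaged 56.4, 46.2 and 40.9 CPM and had peaks in 22, 3 and 5 libraries. A further narrow OCR of that stretch, chr4:77446745-77447047, averaged 40.9 CPM with peaks in 8 libraries, and was added after its values were seen. Among them lay the wider OCR chr4:77447556-77448678, at 1139 CPM with peaks in all 29 libraries. Their highest fold enrichments were 1.73 to 3.45, below the median of 4.02 to 5.46 for peaks in narrow OCRs. The last of the 5, chr4:146546094-146546425, averaged 44.4 CPM and had peaks in all 29 libraries.

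The narrow OCRs with peaks in all 29 libraries and the highest levels were chr4:146546094-146546425, chr4:146538698-146539048, chr2:110305551-110305805, chr1:82109714-82110074 and chr20:4370728-4371025, at 44.4, 31.1, 26.6, 26.3 and 26.2 CPM. The OCR on chromosome 2 was unlike the other 4. It was 255 bp wide, lay 104305 bp from the closest OCR and reached a fold enrichment of 54.8 with a −log10 q of 814, while the other 4 reached folds of 2.88 to 5.27. Its level was 31.7 ± 12.2 CPM in NAc, 24.3 ± 10.4 in DG, 15.1 ± 4.97 in CA (SD, n = 4 each) and 31.9 ± 11.4 in SVZ (SD, n = 3) of saline animals. The OCR chr1:82109714-82110074 was the steadiest, at 26.3 ± 0.464, 26.0 ± 3.44, 27.5 ± 6.04 and 26.3 ± 1.82 CPM in the same order.

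At the other end, 4 narrow OCRs had no peak in any library. Their means were 1.95 to 2.99 CPM, where the quartiles of narrow OCRs were 2.25 and 3.61 CPM. They were chr1:180805585-180805734, chr8:126968907-126969177, chr12:40476-40637 and chr12:31759011-31759368.

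The next comparison asked whether the regions of saline animals differed in how much of their signal lay in narrow OCRs. Narrow OCRs took 3.32% ± 0.286 of OCR counts in NAc, 3.08% ± 0.336 in DG, 3.26% ± 0.198 in CA (SD, n = 4 each) and 3.41% ± 0.347 in SVZ (SD, n = 3). The ranges of the 4 regions overlapped, and no pair passed a test. The largest difference, DG minus SVZ, was -0.334 percentage points (exact permutation test, two-sided, p = 0.286, adjusted over 6 pairs 0.686). The other 5 pairs had exact permutation p-values of 0.229 to 0.714. Libraries of 1 animal can also be compared with each other. Within animals, NAc was above DG in 4 of 4, by 0.241 ± 0.163 percentage points (SD), and DG was below CA in 4 of 4, with a difference of -0.178 ± 0.178 (exact sign-flip permutation p = 0.125 each, the smallest that 4 animals allow, adjusted over 6 pairs 0.375). The other 4 pairs had differences of both signs. Within every group that held both name sets, name set 2 had the higher mean, by 0.218 to 0.552 percentage points. These groups share animals, and a difference between the sets cannot be told apart from one between animals. In saline DG the values were 2.87% and 2.73% in name set 1 and 3.47% and 3.24% in name set 2. Libraries of name set 1 also tended to have more of their counts in the most open decile of OCRs, for example 58.2% in saline DG replicate 2 against 47.3% in replicate 3.

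**Figure D3:**
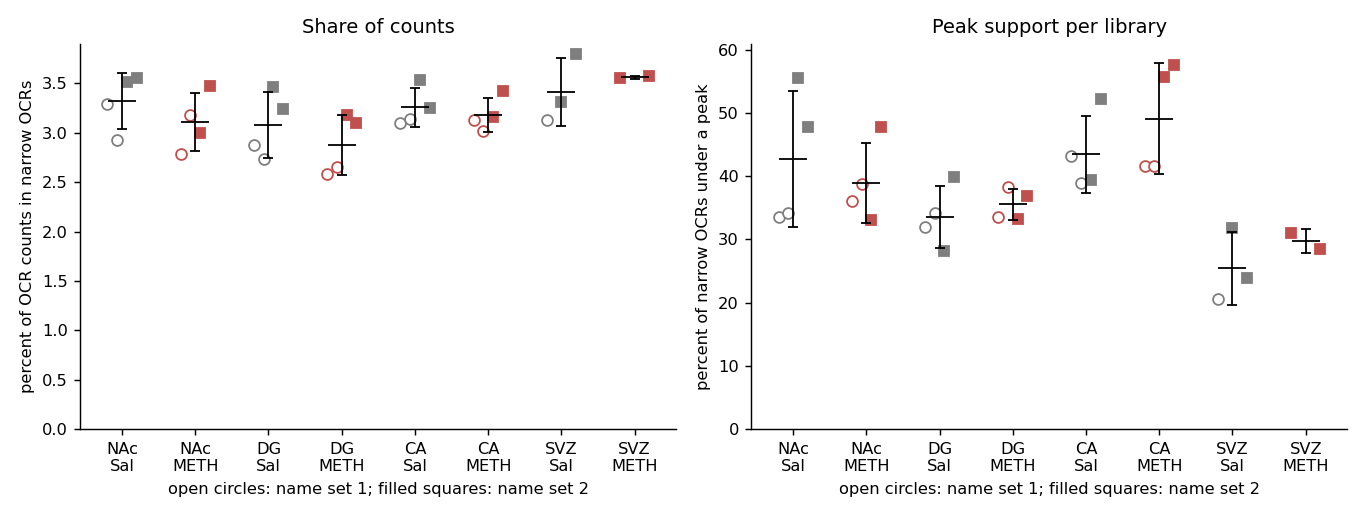
Percent of OCR counts in narrow OCRs (left) and percent of narrow OCRs under a peak (right) in each of the 29 libraries by group, with the mean and SD in black, grey for saline and red for METH, open circles for name set 1 and filled squares for name set 2. Groups overlap on the left between 2.58% and 3.80%, where the squares tend to sit above the circles.

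Testing each narrow OCR across the regions of saline animals showed that differences centred on NAc. In the quasi-likelihood test, 684 narrow OCRs (7.03%) differed among the 4 regions at an FDR under 0.01, against 7.51% of all OCRs tested. By mean CPM in saline libraries, NAc was the highest region in 559 of the 684 (81.7%), SVZ in 67, DG in 31 and CA in 27. CA was the lowest in 349 and DG in 277. Among the 6691 wider OCRs that differed, NAc was highest in 66.2% and DG in 16.9%.

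An OCR was called specific to a region when it exceeded the mean of the other 3 regions by more than 1 on the log2 scale at an FDR under 0.01. By this rule 498 narrow OCRs (5.12%) were specific to NAc, against 4.66% of all OCRs. One was specific to DG (background 0.155%), 2 to CA (0.0814%) and 12 to SVZ (0.399%). The NAc share of narrow OCRs was thus close to the background. It varied with level, as 18.9% of narrow OCRs with a mean under 2 CPM were specific to NAc, 3.82% of those at 2 to 3 CPM and 1.5% of those at 3 to 4 CPM. An OCR of low mean had to be high in at least 4 libraries to enter the matrix, and the part of this in the NAc share was not tested. In wider OCRs the shares were 15.2%, 7.20% and 5.58% at the same levels, so narrow OCRs had the larger share under 2 CPM and the smaller one at 2 to 4 CPM.

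The NAc-specific narrow OCRs, like the wider ones, were shared with SVZ more than with the hippocampus. Their log2 fold changes ran from 1.06 to 4.28 with a median of 2.01. In 497 of 498, SVZ was the highest of the other 3 regions in saline libraries. The median level over the 498 OCRs was 4.39 ± 1.00 CPM in NAc, 0.652 ± 0.151 in DG, 0.609 ± 0.144 in CA (SD, n = 4 libraries each) and 2.97 ± 1.53 in SVZ (SD, n = 3) of saline animals. In SVZ the 3 saline libraries had 2.00, 2.17 and 4.73 CPM, so replicate 3 lay within the NAc range and the other two below it. The 4078 wider OCRs specific to NAc had a like order in saline animals. Their median level was 6.58 CPM in NAc, 4.66 in SVZ, 0.969 in DG and 0.888 in CA. Peaks were found in NAc alone in 84 of the 498, and in NAc and SVZ but neither DG nor CA in 365 that had at least 1 SVZ peak. Among all narrow OCRs 369 (3.79%) had peaks in NAc alone. The 498 were chosen as higher in NAc than elsewhere, so few peaks outside NAc are in part a result of that choice. The count of 498 depended on single libraries. It was 119 without saline replicate 4 of NAc, 178 without replicate 3, 273 without replicate 1, 265 without SVZ replicate 2 and 297 without SVZ replicate 1. With the animal as a block it was 763, which held 493 of the 498, and 4032 of the 4078 wider OCRs were also called. No count over all OCRs is given for the fits with 1 library left out.

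METH libraries, which took no part in the test that chose these OCRs, also had NAc above the mean of the other regions. They did help to set which regions entered the matrix, through the merged peaks and the floor on counts, so they are not independent of the choice. All 498 had a positive log2 fold change of NAc over the other regions of METH animals, 462 of them above 1, whereas 12.1% of all narrow OCRs were above 1 there. Of the 4078 wider OCRs specific to NAc, 4077 were positive and 3821 above 1, against 9.05% of all wider OCRs above 1. In METH libraries 1538 of these wider OCRs were also called, at the thresholds used in saline. Called at the same thresholds in METH libraries were 70 of the 498 and 106 narrow OCRs in all, against 2.18% of all OCRs. METH replicate 3 of NAc decided this count. Without it, 281 of the 498 and 488 narrow OCRs in all were called, against 5.13% of all OCRs, and the median log2 fold change of the 498 rose from 1.77 to 2.07.

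**Figure D4:**
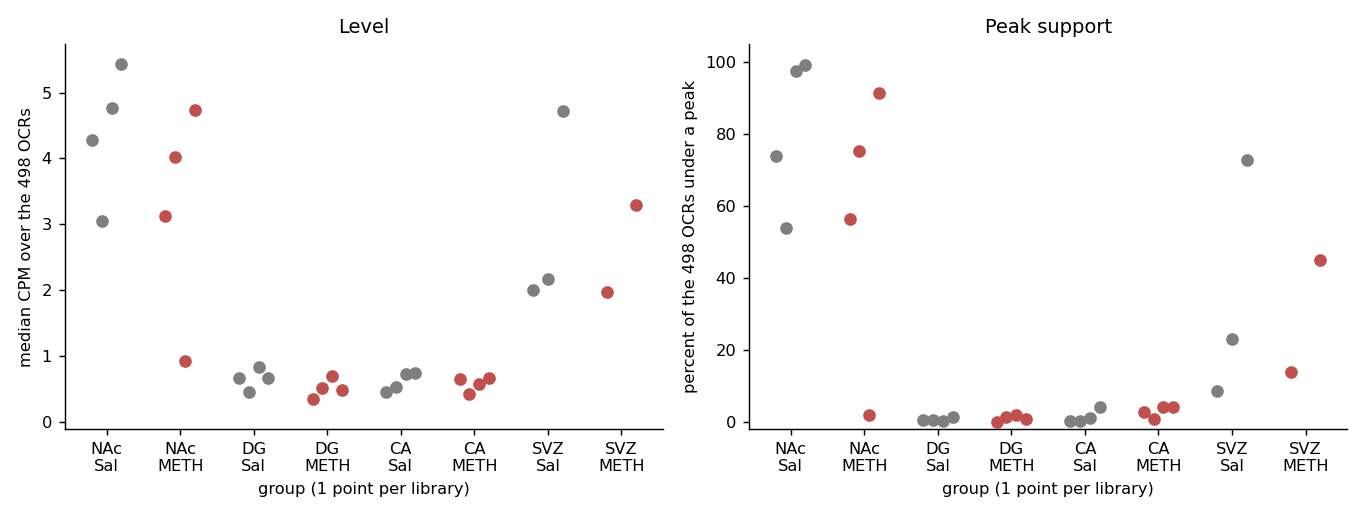
Median level in CPM (left) and percent under a peak (right) of the 498 narrow OCRs specific to NAc in saline libraries, 1 point per library, grey for saline and red for METH. The 498 OCRs were chosen in the saline libraries, and among the METH libraries of NAc replicate 3 lies at 0.923 CPM and 2.01%, next to the DG and CA libraries.

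Single OCRs show the pattern. The 3 narrow OCRs with the largest NAc fold changes were chr5:91767144-91767533, chr6:130287903-130288266 and chr3:157253472-157253857, and since they were picked for this difference their values are a description. The first had 4.09, 2.34, 3.0 and 4.62 CPM in the saline NAc libraries, 1.06, 1.13 and 2.95 CPM in SVZ, at most 0.218 CPM in CA, and 1 count in all over the 4 DG libraries. Its log2 fold change over the mean of the other regions was 4.28 ± 0.564 (SE, edgeR adjusted p = 0.000132). In METH libraries of NAc it had 1.31, 4.25, 0.739 and 3.65 CPM. Replicate 3 was the lowest of them.

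The second, chr6:130287903-130288266, was called specific both to NAc and to SVZ. It had 3.99, 1.73, 5.79 and 7.17 CPM in saline NAc and 2.11, 2.52 and 5.55 CPM in saline SVZ, while the 8 saline DG and CA libraries had at most 0.394 CPM. METH libraries of NAc had 5.94, 3.88, 0.369 and 7.39 CPM. The third, chr3:157253472-157253857, had 2.82, 1.83, 3.48 and 6.47 CPM in saline NAc and 0.277 CPM in METH replicate 3 of NAc. Saline and METH values overlapped in NAc for all 3 OCRs.

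All 12 narrow OCRs specific to SVZ were also specific to NAc, so each was high in both regions against a low hippocampus. Besides the one on chromosome 6, the leading ones were chr17:22648161-22648535 and chr1:15294934-15295304. The first of these had 2.53, 3.04 and 6.62 CPM in saline SVZ, 3.70, 0.713, 2.25 and 4.32 CPM in saline NAc, and at most 0.436 CPM in saline DG and CA. The second had 2.85, 3.04 and 7.21 CPM in SVZ and 3.80, 2.55, 3.89 and 4.62 CPM in NAc. SVZ replicate 3 was the highest in each, and without it 0 narrow OCRs were called specific to SVZ (edgeR). With all saline libraries 1375 narrow OCRs (14.1%) had an unadjusted p under 0.05 for SVZ in either direction, against 15.4% of all OCRs. DESeq2 called 125 narrow OCRs specific to SVZ, with no count over all OCRs given here. With the animal as a block the SVZ count was also 0, and 16 of the 380 wider OCRs specific to SVZ were still called.

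In the main fit the hippocampal regions had few narrow OCRs of their own and shared the leading one. The OCR chr13:56661327-56661717 was called specific to DG and to CA alike. It had 4.19, 2.01, 2.27 and 4.17 CPM in saline DG and 1.87, 1.97, 2.98 and 4.27 CPM in saline CA, with 0.174 to 0.591 CPM in saline NAc and SVZ. DG and CA overlapped and each lay above both other regions in every saline library. In METH libraries of DG it had 0.344, 2.24, 4.04 and 0.0953 CPM, low in replicates 1 and 4. The second OCR called in CA, chr3:150076058-150076405, had 5.75, 2.69, 7.77 and 9.73 CPM in CA and 5.53, 3.56, 4.43 and 6.01 CPM in DG. Both calls in CA and the call in DG were lost with TMM scaling.

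The final comparison, METH against saline within each region, is the study's main question. No narrow OCR was a differentially accessible region (DAR), defined by a fold change above 1.5 at an FDR under 0.001, in NAc, DG, CA or SVZ. The background was 0% in each region, as 0 of all 98237 OCRs passed in the quasi-likelihood test. The study, which normalized its counts with RUVr, reported DARs in each of these regions at the same thresholds, over OCRs of all widths. The quasi-likelihood test here used no RUVr factors, so its 0 is not a repeat of the study's own calls. The lowest FDR of a narrow OCR was 0.49 in DG and rounded to 1.0 in the other regions. DESeq2 also called 0 narrow DARs in each region. With 5 RUVr factors, estimates of unwanted variation from the residuals, 42 narrow OCRs were higher and 58 lower in DG, against 2.30% and 2.49% of all OCRs. Together they made up 1.03% of narrow and 5.20% of wider OCRs. In the other regions 0 narrow OCRs passed, and of all OCRs 15 (0.0153%) passed in NAc, 0 in CA and 190 (0.193%) in SVZ.

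At an unadjusted p under 0.05, 74 narrow OCRs were higher and 155 lower after METH in NAc, against 1.03% and 1.42% of all OCRs (0.760% and 1.59% of narrow ones). In DG 303 were higher and 513 lower, or 3.11% and 5.27%, against 3.57% and 6.28%. In CA 28 were higher and 91 lower, or 0.288% and 0.935%, against 0.353% and 0.467%. In SVZ 97 were higher and 99 lower, or 0.996% and 1.02%, against 1.27% and 2.20%. Both directions together made up 2.35% of narrow OCRs for NAc, 8.38% for DG, 1.22% for CA and 2.01% for SVZ.

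The direction in DG depended on scaling. With TMM, 477 narrow OCRs were higher and 392 lower at an unadjusted p under 0.05, against 6.85% and 4.92% of all OCRs. With DESeq2 the numbers were 876 and 338, against 11.7% and 4.39%. The share of these narrow OCRs that was higher thus moved from 37.1% to 54.9% and 72.2%, and among all OCRs it moved likewise, from 36.2% to 58.2% and 72.7%. The median log2 fold change of all OCRs in DG was -0.15 with upper-quartile scaling, -0.09 with TMM and -0.01 with DESeq2. In NAc the share of narrow OCRs that was higher moved from 32.3% to 43.0% with TMM (92 higher and 122 lower, against 1.36% and 1.10% of all OCRs). METH replicates 1 and 4 of DG and METH replicate 3 of NAc also weighed on the counts. Without these 3, 47 narrow OCRs were higher and 121 lower in DG, against 0.338% and 0.939% of all OCRs. In NAc 53 were higher and 175 lower, against 0.832% and 1.71%.

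The medians of the classes lay close together. For narrow OCRs the median log2 fold change was -0.07 in NAc against 0.00 in wider OCRs, -0.12 against -0.15 in DG, -0.02 against 0.03 in CA and -0.04 against 0.00 in SVZ. Without the 3 METH libraries that stood apart, the DG medians were -0.05 in narrow and 0.01 in wider OCRs, so that narrow minus wider turned from 0.03 to -0.06, and the NAc medians were -0.09 and -0.03. The difference between the classes was at most 0.07 in size with upper-quartile, TMM and DESeq2 scaling alike. With 5 RUVr factors narrow minus wider was -0.075 in NAc and smaller in size in the other regions. The median standard error of a single narrow OCR was 0.41 to 0.54. Narrow OCRs spread a little more. In CA 10.1% of them and 6.86% of wider OCRs passed a 1.5-fold change in either direction, and in DG 33.2% and 30.7%. The trended biological coefficient of variation was 0.433 in the median narrow OCR and 0.384 in the median wider one.

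**Figure D5:**
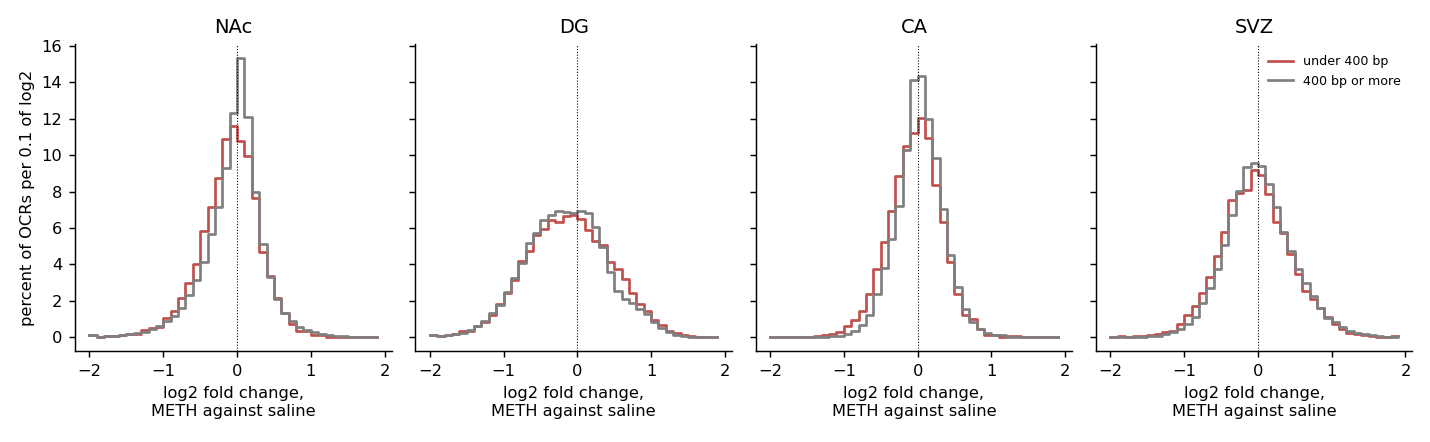
Distribution of the log2 fold change of METH against saline in each region, as percent of OCRs per step of 0.1, in red for narrow and grey for wider OCRs, with values beyond the axis placed in the end steps. The curves of the classes nearly coincide, with medians of -0.12 and -0.15 in DG and -0.07 and 0.00 in NAc.

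The share of OCR counts in narrow OCRs did not pass a test between treatments. In NAc it was 3.11% ± 0.292 after METH and 3.32% ± 0.286 after saline (SD, n = 4 each; exact permutation test, two-sided, p = 0.314). In DG it was 2.88% ± 0.303 and 3.08% ± 0.336 (exact permutation p = 0.429), and in CA 3.18% ± 0.172 and 3.26% ± 0.198 (exact permutation p = 0.571). In SVZ it was 3.56% ± 0.0139 (n = 2) and 3.41% ± 0.347 (n = 3, exact permutation p = 0.6). All 4 adjusted to 0.6, and the smallest p that the design allows is 0.0286 with 4 against 4 libraries and 0.1 in SVZ. In DG the METH libraries lay below the saline ones without overlap within each name set, at 2.58% and 2.66% against 2.87% and 2.73% in name set 1 and at 3.18% and 3.10% against 3.47% and 3.24% in name set 2. With labels permuted within name sets the exact permutation p for DG was 0.0556, the smallest possible there, and 0.222 after adjustment over the 4 regions. It was 0.222 in NAc and 0.444 in CA before adjustment. Without the 3 METH libraries that stood apart, METH minus saline in DG was -0.162 percentage points, against -0.199 with them.

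Peak support of narrow OCRs behaved alike. After METH and saline, 38.9% ± 6.32 and 42.7% ± 10.8 of narrow OCRs lay under a peak in NAc (exact permutation p = 0.571), 35.5% ± 2.51 and 33.5% ± 4.90 in DG (exact permutation p = 0.543), 49.1% ± 8.73 and 43.5% ± 6.12 in CA (SD, n = 4 each; exact permutation p = 0.229), and 29.8% ± 1.87 (n = 2) and 25.5% ± 5.76 (n = 3) in SVZ (exact permutation p = 0.6). The treatment groups overlapped in every region. The NAc difference of -3.81 percentage points became 0.455 without saline replicate 3 of NAc. It was 3.65 within name set 1.

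The narrow OCRs with the largest METH differences and no overlap between treatments are given as a description, since that is how they were picked, and none was a DAR. In NAc, chr18:56142107-56142442 had 0.876, 0.917, 1.57 and 1.54 CPM after saline and 2.52, 1.75, 7.57 and 2.10 CPM after METH. Its log2 fold change of 1.49 ± 0.540 (SE) leaned on METH replicate 3 and was 0.77 without the 3 libraries named above. The OCR chr16:81227203-81227559 had 2.05, 0.917, 1.09 and 1.16 CPM after saline and 2.11, 3.69, 3.69 and 2.18 CPM after METH, with a peak in 4 of 4 METH and 0 of 4 saline libraries. Its log2 fold change of 1.16 was 1.03 without METH replicate 3.

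Lower after METH in NAc were chr8:106586879-106587198, with a log2 fold change of -1.83 ± 0.606, and chr8:130967636-130968017, with -1.75 ± 0.681. Without METH replicate 3 these were -1.64 and -1.60. The latter had 3.12, 3.97, 4.77 and 5.01 CPM and 4 of 4 peaks after saline, and 0.705, 0.831, 0.831 and 2.57 CPM and 1 of 4 peaks after METH. All 4 METH libraries lay below the saline ones, with replicate 4 the closest to them.

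In DG, chr15:76526263-76526656 had 1.72, 1.55, 2.68 and 1.39 CPM after saline and 5.33, 3.01, 3.15 and 12.9 CPM after METH. Replicates 1 and 4, which stood apart, were the highest, and the log2 fold change of 1.73 was 0.75 without them. The OCR chr20:14273319-14273663 had 0.476, 0.457, 0.927 and 0.806 CPM after saline and 1.81, 1.20, 3.35 and 1.43 CPM after METH, and its log2 fold change of 1.53 was 1.75 without those replicates. Lower after METH were chr1:52843822-52844081, with 1.24, 4.02, 2.89 and 6.88 CPM after saline and 0.344, 1.12, 1.08 and 0.191 CPM after METH, and chr19:37897351-37897712, with 1.43, 3.29, 1.96 and 6.08 and 0.516, 0.688, 1.28 and 0.762 CPM. Their log2 fold changes of -2.45 and -1.98 were -1.77 and -1.71 without replicates 1 and 4. With all libraries, both passed the DAR thresholds with 5 RUVr factors.

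In CA, chr1:177024720-177025018 had 0.762 to 1.97 CPM after saline and 2.19 to 4.69 CPM after METH, and chr2:189980277-189980669 had 1.94 to 3.21 and 3.80 to 4.97 CPM. Lower after METH were chr5:139334169-139334532, with 1.38 to 1.66 and 0.144 to 1.24 CPM, and chr18:48240597-48240943, with 1.79 to 3.94 and 1.05 to 1.77 CPM. The OCR on chromosome 5 had no peak in any CA library. The one on chromosome 18 had a peak in 4 of 4 saline and 0 of 4 METH libraries of CA. Its ranges were separated by the gap between 1.77 and 1.79 CPM.

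In SVZ, with 2 METH libraries, chr5:30542216-30542610 had 0.528, 0.608 and 0.118 CPM after saline and 2.02 and 2.47 CPM after METH. No SVZ library had a peak in it. The OCR chr14:62791224-62791606 had 2.00, 0.521 and 2.72 CPM after saline and 5.97 and 7.52 CPM after METH, with a peak in both METH libraries. Lower after METH were chr20:4576403-4576603, with 5.49, 3.56 and 3.66 against 0 and 1.75 CPM, and chr9:44786552-44786839, with 4.01, 1.82 and 2.13 against 0 and 1.34 CPM. Neither of these had a peak in any SVZ library. METH replicate 1 gave 0 counts in both, which allows up to 3 counts.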

How the data were processed

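The deposited matrix holds raw read counts of ATAC-seq signal per OCR, one column per library, made by the authors from rn6 alignments (AIAP pipeline) over a set of peaks merged with bedtools. The peak lists deposited by the authors, called in each library separately, give a fold enrichment over background (a ratio), a −log10 p-value and a −log10 q-value per peak. The number of RUV factors the authors chose was not given in the sources used here. All members, lists and thresholds here were chosen with earlier results of these data known.

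OCRs with End minus Start under 400 bp were counted after each test was run over all 98237 OCRs. The main test was edgeR 4.0.16 (R 4.3.3) with quasi-likelihood fits, a trended dispersion, robust estimation and upper-quartile scaling. METH contrasts used 8 groups in 29 libraries. Region contrasts used the saline libraries, with Benjamini-Hochberg adjustment over all OCRs. No OCR was filtered. Peaks were matched with bedtools 2.31.1 at a minimum overlap of 1 bp. Values with 1 number per library were compared by exact permutation tests. The fits were tested on simulated data.

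OCRs are named by rule. For each METH contrast the rule took the 2 higher and 2 lower with the largest log2 fold change among those with a mean of at least 1 CPM, an unadjusted p under 0.05 and no overlap between treatments. It also took up to 3 region-specific OCRs per region, the 5 highest mean levels, the 5 with most peaks, and the OCRs on either side of the width limit. The comparisons within animals and within name sets, the use of METH libraries for region contrasts, and the omission of 3 libraries were chosen after seeing the data. Sequences are not printed, since no rn6 genome was used, and the planned marker check was not run for the same reason.

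By the numbers in their names, NAc, DG and CA libraries of equal replicate number within one treatment come from 1 animal. The replicate numbers stand for different animals in METH and saline. Deviations from group means of same-numbered METH and saline libraries correlated at -0.26 to 0.69 across OCRs, over 0.1 in 7 of 14 pairs. Those of the same saline animal in 2 regions correlated at -0.34 to 0.66, over 0.1 in 11 of 21. The region tests with the animal as a block are given beside the counts they change. The alternatives were TMM, DESeq2 1.42.0, 5 RUVr factors, width limits of 300 and 500 bp, a mean of at least 1 CPM, the name set, the replicate number or the animal as a term, single-region fits, all 29 libraries in one model, 50% overlap, −log10 q above 5, and each library left out. P-values cover the spread between these libraries, which share animals across regions.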

Additional observations from a re-analysis of the deposited data

Results flagged for a closer look

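In 5 cases a named OCR had 1 library far from the rest of its group by Dixon's test, out of 57 groups tested. Chance alone gives about 1 in 20 in groups not chosen by their values. The named OCRs were picked by theirs, so no conclusion is drawn from the count. In METH libraries of NAc, replicate 3 had 7.57 CPM at chr18:56142107-56142442, with the next at 2.52 CPM, and replicate 4 had 2.57 CPM at chr8:130967636-130968017, with the next at 0.831 CPM. In saline libraries of NAc, replicate 3 had 2.52 CPM at chr3:150076058-150076405, with the next at 0.876 CPM. The other 2 were a single library above others at 0, with 0.103 CPM (1 count) in saline DG at chr5:91767144-91767533 and 0.138 CPM (3 counts) in saline CA at chr3:157253472-157253857, both at or below the 3 counts that a count of 0 allows.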

How the results depend on the processing

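The 0 narrow DARs held under every alternative run except 5 RUVr factors, which gave 100 in DG. The number specific to NAc (498) was 763 with the animal block, 779 with DESeq2, 1273 with 5 RUVr factors and 106 in METH libraries, and 119 to 666 with 1 library left out. Specific to DG (1) were 0 with all 29 libraries in one model, with TMM and in METH libraries with or without 1 NAc library, 2 with the animal block, 10 with the name set, 41 with DESeq2, 309 with 5 RUVr factors, and 0 to 24 with 1 library left out. Specific to CA (2) were 4 with all 29 libraries, 10 with the animal block, 11 with the name set, 83 with DESeq2, 240 with 5 RUVr factors, 0 with TMM, 44 in METH libraries, 68 without 1 NAc library there, and 0 to 29 with 1 library left out. Specific to SVZ (12) were 0 with the animal block, 125 with DESeq2, 492 with 5 RUVr factors, 1 with TMM, 77 in METH libraries, 99 without 1 NAc library there, and 0 to 23 with 1 library left out. OCRs that differed among regions (684) numbered 1394 with DESeq2, 2546 with 5 RUVr factors and 328 to 793 with 1 library left out. Under 300 bp the counts were 68, 0, 0, 2 and 95 for NAc, DG, CA, SVZ and any difference, and under 500 bp they were 1441, 4, 7, 50 and 1973, from fewer or more OCRs. With the replicate block, 625 were specific to NAc, 4 to DG, 8 to CA and 16 to SVZ, and the number of DARs stayed 0. Counts over all OCRs are not set beside these, so a change in narrow OCRs alone cannot be told from one in all OCRs. The cause of these changes was not tested.

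Small differences changed sign. METH minus saline in the percent of narrow OCRs under a peak was 3.65 in NAc within name set 1, -6.89 to 0.455 in NAc with 1 library left out, and -0.798 in DG under 500 bp. In the percent of counts, NAc minus CA was -0.0236 under 300 bp, -0.00984 within name set 1 and -0.0139 to 0.195 with 1 library left out. With 1 library left out, NAc minus SVZ was -0.235 to 0.101, CA minus SVZ -0.298 to 0.0373, and METH minus saline in CA -0.156 to 0.0184. Within animals NAc minus SVZ was 0.0387. The median narrow OCR had 25 to 60 counts per library and a median standard error of 0.41 to 0.54 in log2 fold change, and how much of that error is depth was not tested.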
